A study of Sus scrofa with 4 samples.

Results

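miR-7 and miR-140 are 2 of the 189 pig miRNAs with a read in these data, and both were chosen by name because adipogenic induction had lowered their hairpin reads in at least 1 culture. Each is a single hairpin entry in each of the 4 libraries, and both had reads in all 4. The induction ratios of their total reads are therefore the values that chose them and are given as a description. The label holds for miR-7 in both cultures. It holds for miR-140 only in the cells from fat, since in the cells from muscle its total was 1.06-fold higher after induction.

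Small RNA was sequenced from primary vascular stem cells of the pig at passage 1, with 1 library in each of 4 groups. IVSC came from the longissimus dorsi, a back muscle, and SVSC from subcutaneous fat; both are undifferentiated cells. IVSC MDI and SVSC MDI are the same kinds of cell after MDI, an induction medium with 0.5 mM IBMX, which blocks phosphodiesterases, 0.25 µM of the glucocorticoid dexamethasone, and insulin at 5 mg/l. After 3 days the first 2 of these were taken away, growth medium came back on day 6, and a further 3 or 4 days followed, without a statement of which applies to which culture. All groups had 20% serum, and the labels call the cells adipose derived in the muscle groups too. The breed, age and number of the animals, and whether both cultures share an animal, are not stated in the labels.

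A miRNA is cut from a hairpin, and either arm of the hairpin can be loaded onto an Argonaute protein to repress mRNAs that match its seed. miR-7 is an ancient miRNA known best from pancreatic islets and neuroendocrine cells, where it represses growth factor signalling, among its targets the EGF receptor pathway. miR-140 lies in the gene of the ubiquitin ligase WWP2, is driven together with it by SOX9 in cartilage, and is known for its part in the growth of the skeleton. Both of its arms are functional. Each file splits the reads of a hairpin into mature, mature* (the opposite arm, here star) and the rest of the hairpin. Which arm of the miR-140 hairpin the files call mature is not stated in them. No mature sequence was used here.

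In a pig gene table of the assembly Sscrofa11.1, the name mir-7 of the files is a synonym of MIR7-2, which lies within HNRNPK, the gene of an RNA-binding protein. A further locus, MIR7-1, lies outside any other listed gene, with AEN, ISG20 and DET1 the nearest coding genes. Reads of identical mature miRNAs from both loci cannot be told apart, so miR-7 stands for either. MIR140 lies within WWP2 in the same table. The table gives neither strand nor exons, so intron or exon cannot be stated from it.

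The libraries held 2573249 to 17937121 miRNA reads, with SVSC MDI the shallowest, and abundance is given as CPM, counts scaled to 1000000 miRNA reads in the library. Ranges in parentheses are exact 95% intervals of counting error only, since PCR copies of 1 molecule cannot be recognised without molecular identifiers. With n = 1 there is no spread between replicates and no test between 2 libraries. Rose and fell are kept for changes past 2-fold with an interval that excludes 1, in a miRNA that reached 10 CPM in either library. The mesenchymal and perivascular markers (5 of 5 with reads) summed to 262057 to 409082 CPM, mostly from miR-143. That miRNA held 4638069 of the 13252168 miRNA reads in IVSC, nearly all on the rest of its hairpin. The endothelial miR-126 stood at 52.6 to 134 CPM. The skeletal muscle markers (5 of 5 with reads) summed to 888 to 6275 CPM and the blood markers to 7.97 to 34.9 CPM, with no read of miR-223 or miR-144. The epithelial markers summed to at most 3.50 CPM, from miR-205 alone. A miRNA missing from the pig hairpins used would also show no read, so markers without a read are not shown to be absent. The other 4 scalings tried moved all log2 ratios of the MDI comparison by -0.50 to -0.40 in SVSC and by -0.04 to 0.22 in IVSC. In bulk RNA, fewer cells of a type and less RNA per cell cannot be told apart.

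miR-7 was highest in undifferentiated IVSC, at 527 CPM (514 to 539; 6978 reads). In IVSC MDI it stood at 78.5 CPM (74.1 to 83.2; 1163 reads). In SVSC it stood at 377 CPM (368 to 386; 6769 reads), and in SVSC MDI at 156 CPM (141 to 172; 401 reads). Both undifferentiated libraries were thus above both MDI libraries, on the totals that chose miR-7. By total reads it ranked 55 of the 189 miRNAs in IVSC and 101 after MDI, and 60 in SVSC and 88 after MDI.

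With MDI, miR-7 fell 6.71-fold in IVSC (6.30 to 7.14) and 2.42-fold in SVSC (2.19 to 2.68). In IVSC, 23.7% of the 152 miRNAs compared fell and 16.4% rose, and in SVSC 21.9% of 146 fell and 34.2% rose. In SVSC 36 rose and 45 fell under TMM scaling, against 50 and 32. In IVSC 32 rose and 21 fell under scaling to all reads, against 25 and 36. Among the compared miRNAs the change of miR-7 was the second lowest in IVSC, where the median log2 ratio was -0.04, and the 22nd lowest in SVSC, where the median was 0.41. Under 5 scalings (to miRNA reads, by TMM, by DESeq2 size factors, to all reads, and to miRNA reads without miR-21) the log2 ratio of miR-7 ran from -2.78 to -2.53 in IVSC and from -1.78 to -1.28 in SVSC, and it was called lower under all 5 in both. Summed, the skeletal muscle markers moved the same way as miR-7. They stood at 6275 CPM in IVSC and 1137 CPM after MDI, and at 1853 CPM in SVSC and 888 CPM after MDI. The single markers were mixed. In IVSC the log2 ratio was -5.13 for miR-206, -2.06 for miR-133b and -0.49 for miR-1, but 0.13 for miR-133a and 0.06 for miR-499. The lower sum in SVSC came from miR-1, which went from 1818 to 661 CPM (log2 ratio -1.46). miR-206 had 50 and 4 reads there, too few to give a direction. miR-133a went from 388 to 511 reads and miR-133b from 24 to 42, although SVSC MDI held 2573249 miRNA reads and SVSC 17937121. Scaled to miRNA reads, both were thus higher with MDI by more than these reads show, against the direction of miR-7. miR-499 went from 9.20 to 10.5 CPM. The part of these markers in the fall of miR-7 was not tested.

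Before MDI, mature reads held 92.2% of the miR-7 total in IVSC and 91.9% in SVSC. A fall of the total this large therefore had to lie mostly in its mature reads. These went from 6435 to 748 reads in IVSC, or from 486 to 50.5 CPM, a fall of 9.61-fold (8.91 to 10.4). In SVSC they went from 6223 to 282 reads, or from 347 to 110 CPM, a fall of 3.17-fold (2.81 to 3.58). On mature reads 20.6% of 126 miRNAs fell and 20.6% rose in IVSC, and 22.3% of 121 fell and 38% rose in SVSC. The total thus understates the change of the mature miRNA in both cultures.

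Reads on the rest of the miR-7 hairpin did not follow the mature reads. They stood at 41.0 CPM in IVSC (543 reads) and 28.0 CPM in IVSC MDI (415 reads), a ratio of 0.684 (0.600 to 0.779). In SVSC they stood at 30.4 CPM (546 reads) and in SVSC MDI at 46.2 CPM (119 reads), a ratio of 1.52 (1.24 to 1.86). They lay between 28.0 and 46.2 CPM in all 4 libraries, while mature reads lay between 50.5 and 486 CPM. Neither change passed 2-fold, where on these reads 20.2% of 104 miRNAs fell and 12.5% rose in IVSC, and 15.3% of 111 fell and 36.9% rose in SVSC.

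The mature share of the miR-7 hairpin accordingly went from 92.2% (91.6 to 92.8) to 64.3% (61.5 to 67.1) in IVSC and from 91.9% (91.3 to 92.6) to 70.3% (65.6 to 74.8) in SVSC. Star reads were listed at 0 in all 4 libraries. Only 9 of 189 miRNAs have a star read in any library, and miR-7 is not among them. By contrast 57 of 189 have most reads on the rest of the hairpin, such as miR-143, with 4636024 such reads and 0 star reads in IVSC. The listed 0 therefore sets no limit on the opposite arm of miR-7, whose reads may be counted on the rest of its hairpin. Independent of any scaling, the odds of a read lying on the rest of the miR-7 hairpin rather than on the mature miRNA were 6.57 times higher with MDI in IVSC (5.65 to 7.65) and 4.81 times higher in SVSC (3.78 to 6.09). Mature reads may come from either locus of miR-7, while the other reads are those on the 1 listed hairpin. The part of the further locus in this shift was not tested.

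This shift was not general. Of 147 miRNAs with at least 100 reads in both IVSC libraries, 56 had a larger share on the rest of the hairpin after MDI, and the median change was -0.14 percentage points. miR-7, at 27.9 points, had the largest rise of that share. In SVSC 57 of 114 had a larger share and the median change was 0.0049 points, and miR-7, at 21.6 points, was at rank 5 by that rise. Outside the pig hairpins, Ensembl non-coding RNAs took 38.5% of all deposited reads in SVSC MDI and 13.99% to 19.3% in the others. Any miRNA genes in the Ensembl set were not removed from these non-coding RNAs. Their part in these shares was not tested.

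**Figure D1:**
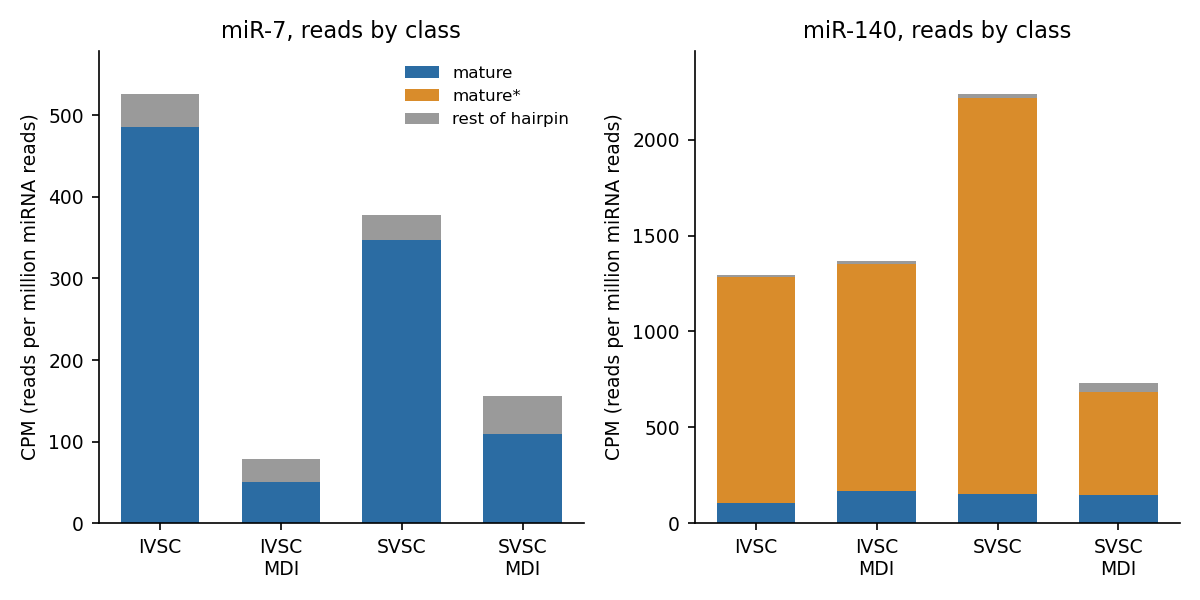
CPM of miR-7 (left) and miR-140 (right) in the 4 libraries, with each bar split into mature reads, star (mature*) reads and reads on the rest of the hairpin. The mature part of miR-7 shrinks from 486 to 50.5 CPM in IVSC and from 347 to 110 CPM in SVSC, while the star part of miR-140 shrinks in SVSC only, from 2064 to 534 CPM.

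Most mature reads of miR-7 matched the annotated miRNA exactly. The share was 90.0% in IVSC and 88.4% after MDI, and 86.0% in SVSC and 91.1% after MDI, so the fall was not confined to reads with altered ends or bases. The files also list entries of Rfam, a collection of RNA families from many species, and do not say whether a read can be counted both there and on a pig hairpin. Its 2 mir-7 entries with the most reads held 115 and 117 reads in IVSC against 9 and 11 in IVSC MDI. In SVSC they held 210 and 203 reads against 1 and 3 in SVSC MDI. In IVSC MDI these entries were 14.3-fold (7.27 to 32.0) and 11.9-fold (6.40 to 24.5) lower, at no more than 8.83 CPM and so below the minimum for a call. In SVSC, from 11.7 and 11.3 CPM, the ratios were 0.0332 (0.000836 to 0.187) and 0.103 (0.0211 to 0.305). All but 5 reads of these entries in SVSC, and every read in the other libraries, matched more than 1 entry, so the 2 entries are not independent of each other. Like the pig hairpin, they were lower in the MDI library of both cultures.

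miR-140 was more abundant than miR-7 in every library, and its order was different. It was highest in SVSC, at 2240.0 CPM (2218 to 2262; 40179 reads). It stood at 1370 CPM in IVSC MDI (1351 to 1389; 20286 reads) and at 1296 CPM in IVSC (1276 to 1315; 17169 reads). It was lowest in SVSC MDI, at 729 CPM (697 to 763; 1877 reads). The 2 IVSC libraries lay close together between the 2 SVSC libraries. Its rank among the 189 miRNAs was 34 in IVSC and 35 after MDI, and 24 in SVSC and 46 after MDI.

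With MDI the total of miR-140 had a ratio of 1.06 in IVSC (1.04 to 1.08) and fell 3.07-fold in SVSC (2.93 to 3.22). In SVSC it was the 16th lowest of 146 changes, and in IVSC the 84th lowest of 152. Under the 5 scalings its log2 ratio ran from 0.04 to 0.30 in IVSC, never past 2-fold, and from -2.12 to -1.62 in SVSC, always called lower.

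The star strand carried most reads of miR-140 in all libraries. It held 91.2% of them in IVSC (90.7 to 91.6) and 86.5% after MDI (86.1 to 87.0), and 92.1% in SVSC (91.9 to 92.4) and 73.1% after MDI (71.1 to 75.1). Of 189 miRNAs, 5 had most of their reads on the star strand, miR-140 among them. The total of miR-140 is therefore mainly a measure of its star reads.

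Star reads of miR-140 stood at 1181 CPM in IVSC (15650 reads) and 1185 CPM in IVSC MDI (17555 reads), a ratio of 1.00 (0.982 to 1.03). In SVSC they fell 3.87-fold (3.66 to 4.08), from 2064 CPM (37018 reads) to 534 CPM (1373 reads). On star reads 25% of the 8 miRNAs compared in SVSC fell and 37.5% rose, while in IVSC 0% of 9 fell and 11.1% rose. The loss of star reads made up 101% of the loss of total CPM in SVSC. Star reads held 92.1% of that total before MDI, so its loss had to lie mostly in them.

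Mature reads of miR-140 behaved otherwise. They stood at 104 CPM in IVSC (1384 reads) and 168 CPM in IVSC MDI (2490 reads), a ratio of 1.61 (1.51 to 1.72). In SVSC they stood at 153 CPM (2736 reads) and in SVSC MDI at 149 CPM (384 reads), a ratio of 0.978 (0.877 to 1.09). Neither passed 2-fold. Under the 5 scalings the log2 ratio in IVSC stayed between 0.65 and 0.91, and in SVSC between -0.54 and -0.03. Scaled to the mature reads of all miRNAs instead, it was 0.28 in SVSC, so the direction of the mature change in SVSC depends on the scaling.

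The ratio of the 2 arms of miR-140 needs no scaling between libraries. There were 11.3 star reads for each mature read in IVSC and 7.05 after MDI, and 13.5 in SVSC and 3.58 after MDI. In both cultures the balance moved toward the mature arm with MDI. The odds of a mature rather than a star read were 1.60 times higher in IVSC MDI than in IVSC (1.50 to 1.72) and 3.78 times higher in SVSC MDI than in SVSC (3.35 to 4.27). Among all miRNAs with at least 100 reads in both libraries, the rise in the mature share of the miR-140 hairpin, 4.21 points in IVSC and 13.6 points in SVSC, ranked 35th of 147 and 9th of 114.

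**Figure D2:**
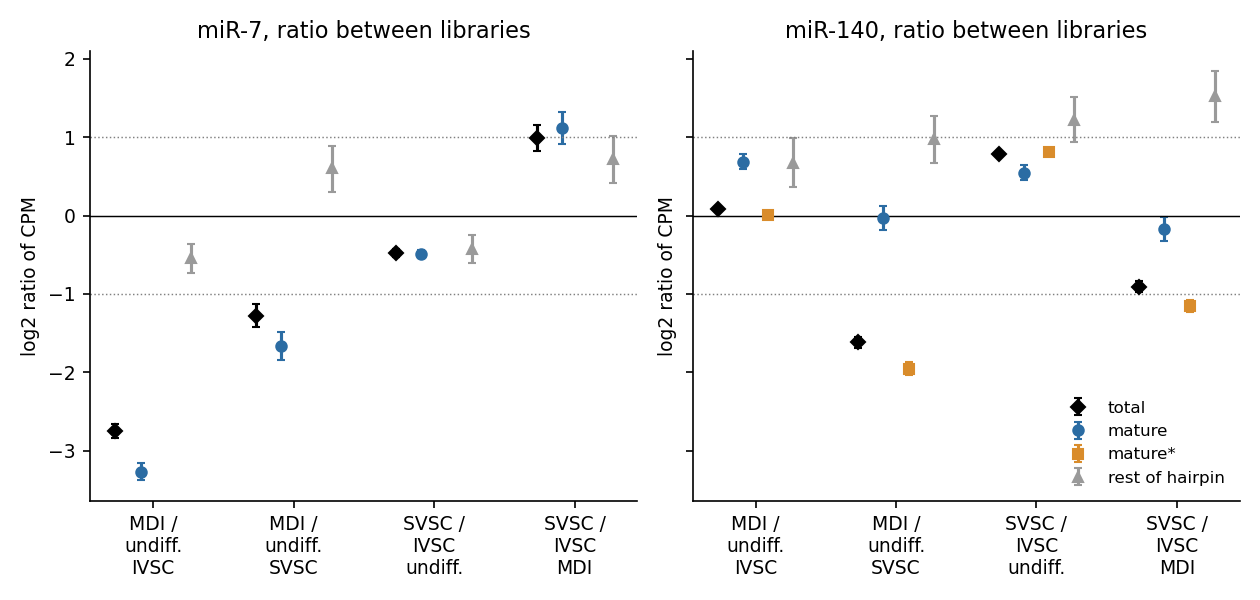
Log2 ratios of CPM for miR-7 (left) and miR-140 (right) in 4 comparisons of 2 libraries each, separately for total, mature, star (mature*) and remaining hairpin reads; bars are exact 95% counting intervals and dotted lines mark 2-fold. For miR-7 the mature reads lie below the total in both MDI comparisons, at -3.27 and -1.66, and for miR-140 in SVSC the mature reads lie at -0.03 while the star reads lie at -1.95.

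Few mature reads of miR-140 were exact. Exact matches numbered 19 of 1384 in IVSC, 6 of 2490 in IVSC MDI, 9 of 2736 in SVSC and 0 of 384 in SVSC MDI. The mature reads of miR-140 thus differ in ends or bases from the annotated miRNA almost throughout. On the star strand 16.9% of the reads were exact in IVSC and 12.8% after MDI, and 17.9% in SVSC and 14.9% after MDI. The rest of the miR-140 hairpin held 10.2 CPM in IVSC and 16.3 CPM in IVSC MDI (135 and 241 reads), and 23.7 CPM in SVSC and 46.6 CPM in SVSC MDI (425 and 120 reads). These low reads were 1.60-fold higher with MDI in IVSC (1.29 to 1.99) and 1.97-fold higher in SVSC (1.59 to 2.42), short of 2-fold in both.

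The mir-140 entries of Rfam did not move together. One entry, whose reads all matched it alone, held 74 reads in IVSC and 239 in IVSC MDI, or 5.58 and 16.1 CPM. The same entry held 334 reads in SVSC and 114 in SVSC MDI, or 18.6 and 44.3 CPM. It rose 2.89-fold in IVSC (2.22 to 3.80) and 2.38-fold in SVSC (1.91 to 2.95), the opposite of the total of the pig hairpin in SVSC. The rise in IVSC was called under all 5 scalings, and that in SVSC under 1 of 5, with a log2 ratio of 0.75 at the lowest. The 2 further entries with most reads, which share their reads, had ratios of 1.36 (0.979 to 1.89) and 1.41 (1.01 to 1.97) in IVSC and 0.953 (0.527 to 1.61) and 1.13 (0.658 to 1.85) in SVSC. This family was 1 of the 2 looked up, and the entry was singled out after its values were seen.

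The plot of mature against total ratios shows how often the choice of reads matters. In IVSC 12 of the 138 miRNAs with mature reads had total and mature log2 ratios of opposite sign, and in SVSC 8 of 108. Neither miR-7 nor miR-140 was among them at this scaling. The gap between both log2 ratios was -0.52 for miR-7 and 0.61 for miR-140 in IVSC, the 21st and 19th largest of 138. In SVSC it was -0.39 for miR-7 and 1.59 for miR-140, places 27 and 5 of 108. A gap of at least 1 was seen for 12 miRNAs in IVSC and 13 in SVSC, miR-140 among those in SVSC.

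**Figure D3:**
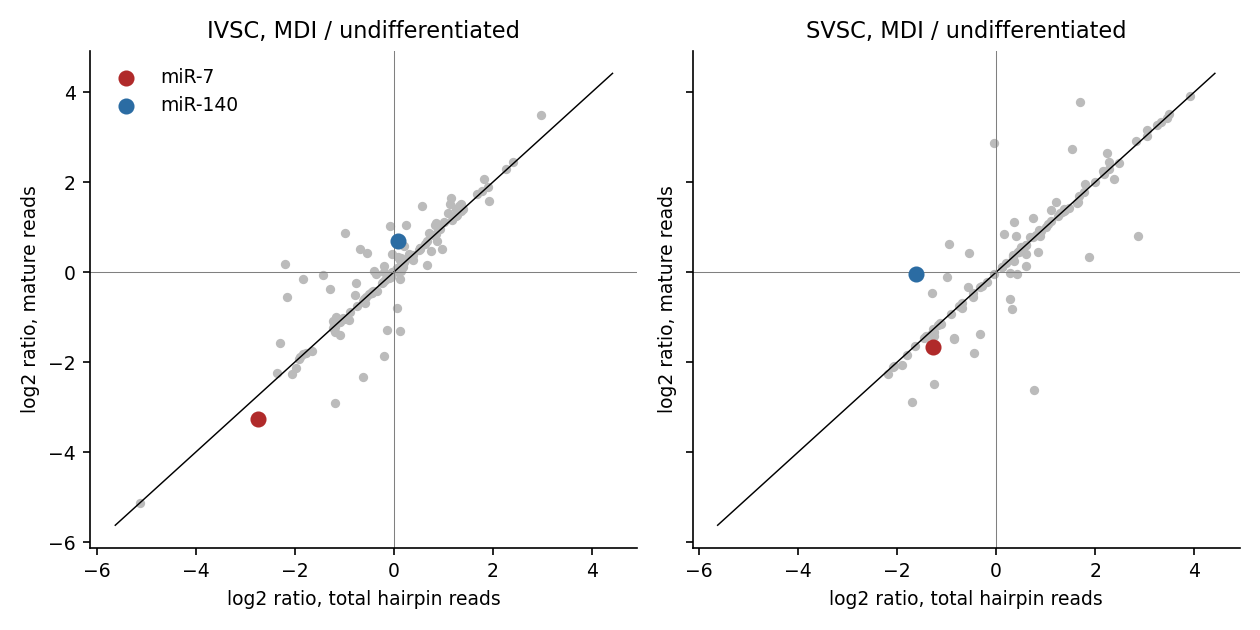
Log2 ratio of MDI to undifferentiated for mature reads (vertical axis) against all hairpin reads (horizontal axis), 1 point per miRNA with at least 100 reads in both libraries, for IVSC (138 miRNAs) and SVSC (108 miRNAs); the diagonal marks equal ratios. miR-7 lies below the diagonal in both, by 0.52 and 0.39, while miR-140 lies above it, by 0.61 and 1.59.

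The MDI change of miR-7 and of miR-140 was then set side by side between the cultures, which share no library. For miR-7 the log2 ratio was -2.75 in IVSC and -1.28 in SVSC, a difference of 1.47 (1.30 to 1.64). For its mature reads the difference was 1.60 (1.40 to 1.81). For the total of miR-140 the log2 ratio was 0.08 in IVSC and -1.62 in SVSC, a difference of -1.70 (-1.77 to -1.63), and for its mature reads the difference was -0.72 (-0.90 to -0.54). miR-7 was thus lowered further in the cells from muscle, and miR-140 was lowered in the cells from fat. These intervals hold counting error only, and harvest days may differ between both MDI cultures.

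Before induction, miR-7 differed by less than 2-fold between the origins. Its MDI changes were larger, but they are the values that chose it, so the 2 effects cannot be ranked. Its ratio of SVSC to IVSC was 0.717 (0.693 to 0.741) on total reads and 0.714 (0.690 to 0.740) on mature reads, with 0.743 on the rest of its hairpin. That of miR-140 was 1.73 (1.70 to 1.76) on total, 1.75 (1.72 to 1.78) on star and 1.46 (1.37 to 1.56) on mature reads. Neither total was called, where 7.43% of 148 miRNAs were higher and 20.9% lower in SVSC, or 24 and 28 miRNAs under TMM scaling against 11 and 31. On mature reads, where 8.2% of 122 were higher and 18.9% lower, neither was called either, nor was miR-140 on star reads, where 12.5% of 8 were higher and 12.5% lower. Reads on the rest of the miR-140 hairpin were 2.33-fold higher in SVSC (1.91 to 2.84), a call met by 10.7% of 103 miRNAs, with 20.4% lower. The total of miR-140 passed 2-fold under 3 of the 5 scalings, at log2 ratios of 1.12 to 1.16.

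After induction the order of the cultures was turned for both miRNAs. miR-7 was 1.98-fold higher in SVSC MDI than in IVSC MDI (1.77 to 2.22), and 2.17-fold higher (1.89 to 2.49) on mature reads. On total reads 17.7% of 147 miRNAs were higher and 10.2% lower, and on mature reads 13.8% of 123 were higher and 11.4% lower. Under scaling to all reads, 7 miRNAs were higher and 29 lower, against 26 and 15. The total of miR-140 was 1.88-fold lower in SVSC MDI (1.79 to 1.97), with star reads 2.22-fold lower (2.10 to 2.35) and mature reads at a ratio of 0.888 (0.795 to 0.989). On star reads 22.2% of 9 miRNAs were lower and 11.1% higher. The rest of the miR-140 hairpin was 2.87-fold higher in SVSC MDI (2.28 to 3.58), where 31.5% of 111 miRNAs were higher and 8.11% lower on such reads, so miR-140 held more of them in SVSC in both states. This call was met under 4 of the 5 scalings, with a log2 ratio of 0.999 under the remaining one. Under 3 of the 5 scalings the total of miR-140 passed 2-fold lower, and under 2 of the 5 the mature reads of miR-7 passed 2-fold higher.

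The origin contrast was not used to choose the 2 miRNAs, so it was also fitted over all 4 libraries with edgeR's quasi-likelihood test, with MDI state as a further term. The log2 difference of SVSC minus IVSC was 0.41 ± 0.61 (SE) for miR-7 and 0.10 ± 0.59 for miR-140, both with a Benjamini-Hochberg adjusted p = 0.996 over 179 miRNAs. miR-7 was higher in SVSC in 1 of 2 states and miR-140 in the other one. In this fit 0.559% of the miRNAs were called higher and 2.23% lower in SVSC. The model has 1 residual degree of freedom, which holds how differently the cultures changed with MDI. Its SE and p-values therefore do not measure spread between animals. The MDI changes that chose both miRNAs come from the same 4 libraries. On simulated data the fit recovered 0.625% of 2-fold and 62.5% of 8-fold differences. The simulation gave every miRNA the same spread and no MDI change, unlike these data, so these rates hold for that setting only. A p-value that misses the threshold therefore does not show that the origins are alike.

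miR-7 and miR-140 did not share a profile over the 4 libraries. The distance between profiles was taken as the Euclidean distance of log2(CPM + 0.5), centred on the mean of each miRNA, over 126 miRNAs at 10 CPM or more in every library. miR-140 was the 37th nearest of the others to miR-7, at a distance of 2.03. The nearest to miR-7 were miR-183, of a sensory organ cluster (0.863), miR-221, known to repress the cell cycle inhibitor p27 (0.905), and miR-503, a relative of miR-16 that represses cyclins (0.938). miR-183 went from 94.2 to 27.7 CPM with MDI in IVSC and from 94.8 to 58.7 CPM in SVSC. The nearest to miR-140 were miR-1277 (0.247), the muscle miRNA miR-1 (0.439) and miR-30d (0.441). miR-1277 went from 26.3 to 30.2 CPM with MDI in IVSC and from 40.6 to 12.8 CPM in SVSC. With 4 points a profile, these are descriptions of these libraries.

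**Figure D4:**
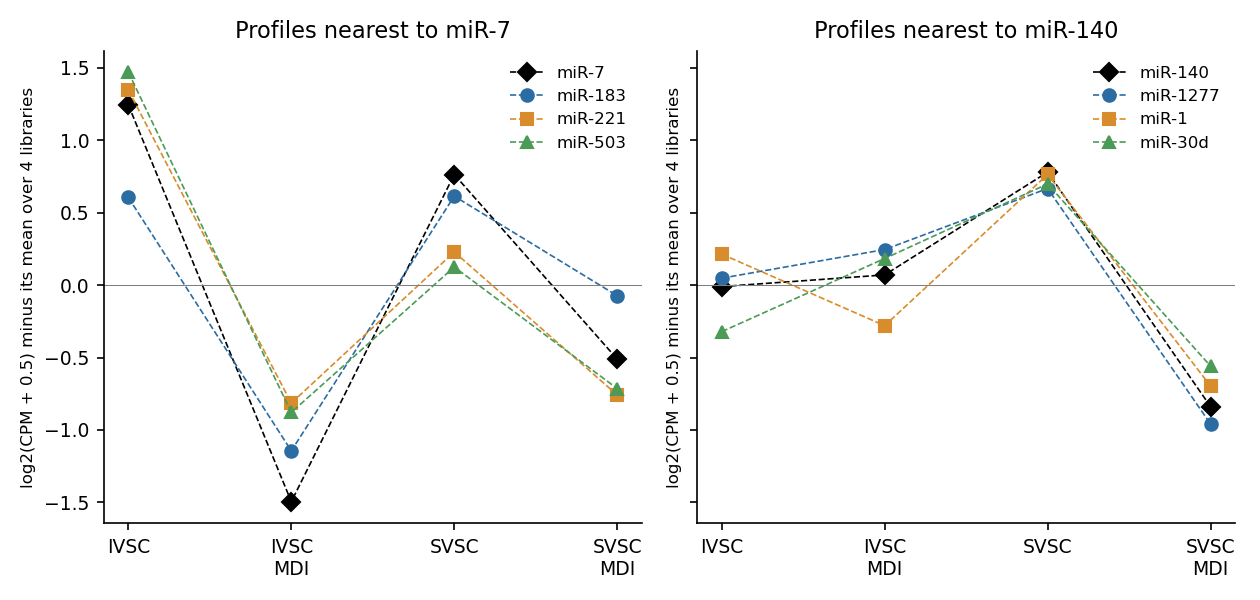
Log2(CPM + 0.5) of miR-7 (left), miR-140 (right) and the 3 miRNAs nearest to each, minus the mean of each miRNA over the 4 libraries; dashed lines only join the points of 1 miRNA. The profile of miR-7 is lowest in IVSC MDI, at -1.49, while that of miR-140 is highest in SVSC, at 0.78, and lowest in SVSC MDI, at -0.84.

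MIR140 and, of the 2 loci of miR-7, MIR7-2 lie within coding genes in the table, and a list of miRNAs known from introns of coding genes was compared. Of the 26 others compared, 4 rose with MDI in IVSC and 5 fell, where 16.4% of all miRNAs compared rose and 23.7% fell. In SVSC 8 rose and 5 fell, where 34.2% of all rose and 21.9% fell. Over the 5 scalings, 3 to 6 of the list rose and 3 to 5 fell in IVSC, and 5 to 8 rose and 5 to 7 fell in SVSC. Their median log2 ratios were -0.02 in IVSC and 0.38 in SVSC, against -0.04 and 0.41 over all miRNAs compared. Both list medians changed sign with the scaling. miR-425 rose most in IVSC (3.22-fold; 3.05 to 3.41) and miR-339 in SVSC (15.1-fold; 13.98 to 16.4). miR-148b, in an intron of COPZ1, fell most of these in both cultures, 3.90-fold in IVSC (3.83 to 3.98) and 4.57-fold in SVSC (4.33 to 4.83).

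Of miRNAs with roles in cartilage and skeleton other than miR-140, 3 of 8 rose with MDI in IVSC and 1 fell, and 4 of 8 rose and none fell in SVSC, beside the same shares of all miRNAs (16.4% and 23.7% in IVSC, 34.2% and 21.9% in SVSC). Over the 5 scalings 2 to 4 rose in IVSC and 3 to 4 in SVSC, and 0 to 1 fell in each. Their median log2 ratios of 0.78 and 0.79 were positive under all 5 scalings, from 0.74 to 1.00 in IVSC and from 0.28 to 0.79 in SVSC. Over all miRNAs compared, scaled to miRNA reads, the medians were -0.04 and 0.41. miR-140 itself stood at 0.08 and -1.62, but it was chosen on such totals, so its distance from the list is a description. miR-455, which is also driven by SOX9 in cartilage, rose 2.01-fold in IVSC (1.89 to 2.14) and 3.11-fold in SVSC (2.81 to 3.43), called under 3 of the 5 scalings in IVSC and all 5 in SVSC. miR-145, which targets SOX9, rose most of the list in both, 5.30-fold (5.21 to 5.40) and 8.31-fold (8.14 to 8.49). miR-214 was the one that fell in IVSC, 2.11-fold (2.03 to 2.20), a call met under 3 of the 5 scalings, with log2 ratios of -1.12 to -0.86.

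Of the neuroendocrine list other than miR-7, 1 of 4 compared rose and 2 fell in IVSC, where 16.4% of all miRNAs rose and 23.7% fell. In SVSC 2 rose and 1 fell, where 34.2% of all rose and 21.9% fell. Their median log2 ratios were -0.93 and 0.55, of the same sign under all 5 scalings in each culture. The neuronal miR-9 rose 2.19-fold in IVSC (1.83 to 2.64) and 3.49-fold in SVSC (2.93 to 4.14). miR-184 fell 3.76-fold in IVSC (2.88 to 4.98) and rose 4.90-fold in SVSC (3.37 to 7.08), on 239 and 71 reads and on 74 and 52 reads. miR-183 fell 3.40-fold in IVSC (3.04 to 3.81) and had a ratio of 0.619 in SVSC (0.521 to 0.732), past 2-fold lower under the other 4 scalings. The neuronal miR-129 had a ratio of 0.941 in IVSC (0.877 to 1.01) and fell 2.38-fold in SVSC (2.26 to 2.51). The islet miRNA miR-375, a defining marker of cells in which miR-7 is best known, had no read in any library. The neuronal marker miR-124, looked up as mir-124 and mir-124a, had 1 read in all, on mir-124a in SVSC MDI. For miR-375 and mir-124, a lack of reads cannot be told from a lack of an entry among the pig hairpins used. The 5 markers of that kind, mostly through miR-9, summed to 13.3 CPM in IVSC and 29.4 CPM after MDI, and to 22.5 CPM in SVSC and 79.3 CPM after MDI. This sum was higher in the MDI library of each culture. Only 2 of the 5 markers had reads in IVSC, IVSC MDI and SVSC, and 3 in SVSC MDI. The wider list was mixed, with 1 of 4 higher and 2 lower in IVSC, and 2 higher and 1 lower in SVSC. A link of these miRNAs to miR-7 was not tested.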

How the data were processed

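The deposited values are read counts per feature, made by the authors from the reads of 4 libraries. Per the file headers, features come from 4 resources, namely pig hairpins, piRNAs, Rfam, and an Ensembl set of non-coding RNAs (release Sscrofa9.61). Each has mature, mature*, other and total counts. In SVSC, 2 deposited columns (uniquely matching mature reads and exact mature* reads) hold damaged entries of other kinds in Rfam tRNA rows, so no tRNA row of them was used. For the aligner, the mismatches allowed and the trimming, the labels and headers give nothing. Per the submitters' processing notes mm9 was named, without its role.

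Counts on hairpins were merged over copies (largest copy plus uniquely matching reads of the rest), giving 189 miRNAs, and scaled to miRNA reads. Intervals are exact binomial (Clopper-Pearson), at 95%, from SciPy 1.17.1. The difference between cultures uses a normal approximation to log counts. A count of 0 was set to 3 reads for ratios, or 0.167 to 1.17 CPM. The origin fit used edgeR 4.0.16 with filterByExpr, TMM and an additive model; its prior degrees of freedom were infinite, so p-values rest on a spread shared by all miRNAs. DESeq2 1.42.0 was the other tool. The intervals and the edgeR fit were tested on simulated data. Scalings tried were miRNA reads, TMM, DESeq2 size factors, all reads, and miRNA reads without miR-21.

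Members and lists were chosen with earlier results of these data known. Named are both members, the 3 nearest profiles of each, and the largest called rise and fall of each list; miR-455, miR-374a, miR-199a, miR-199b and miR-376a were added after their values were seen.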

Additional observations from a re-analysis of the deposited data

Results flagged for a closer look

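The reads on the rest of the miR-7 hairpin had MDI ratios on opposite sides of 1 in the cultures, at -0.55 on the log2 scale in IVSC and 0.60 in SVSC. With 1 library in each group, the difference was not tested. Under the 5 scalings the value ran from -0.59 to -0.33 in IVSC and from 0.10 to 0.60 in SVSC.

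The total reads of miR-140 also lay on opposite sides, at 0.080 on the log2 scale in IVSC and -1.62 in SVSC, and this difference was not tested either. The value in IVSC is small beside the shifts that scalings bring.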

How the results depend on the processing

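Recomputed under alternatives, all 28 counts of called miRNAs in the 4 comparisons stayed within 1.5 times the main count. Of 111 values under alternatives, 66 stayed within the counting interval or on the same side of a threshold. The others follow as log2 ratios. For MDI in IVSC, miR-140 had 0.041 (TMM), 0.30 (all reads), 0.17 (without miR-21), 0.17 (copies summed) and 0.75 (mature reads scaled to all mature reads), and miR-7 had -2.53 (all reads) and -3.20 (mature reads). For MDI in SVSC, under TMM, DESeq2 size factors, all reads and without miR-21, miR-7 had -1.78, -1.70, -1.76 and -1.67, and miR-140 -2.12, -2.04, -2.10 and -2.02. On mature reads scaled to all mature reads miR-140 turned to 0.28; mature reads were 71.2% of miRNA reads in SVSC and 57.5% in SVSC MDI, by which this scaling differs. For origin before induction, under TMM, DESeq2 size factors, all reads, without miR-21, copies summed and mature reads, miR-7 had -0.14, -0.11, -0.30, -0.15, -0.40 and -0.70, and miR-140 1.14, 1.16, 0.97, 1.12, 0.87 and 0.33. For origin after induction miR-140 had -1.03 (TMM), -1.43 (all reads), -1.06 (without miR-21) and -0.15 (mature reads), and miR-7 had 0.47 (all reads). For the others the cause was not tested.

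The difference of the MDI change between cultures was 1.00 for miR-7 under TMM, and for miR-140 -2.16 under TMM and -0.72 on mature reads. DESeq2 called 10 miRNAs for origin, against 5 with edgeR. Counting only exact mature reads, the mature share of the miR-7 hairpin was 83.0% in IVSC and 56.8% after MDI, and 79.0% in SVSC and 64.1% after MDI. That of miR-140 was, in the same order, 0.11%, 0.030%, 0.022% and 0.0%.

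No paired analysis was possible because each group holds 1 library and the labels carry no replicate numbers. SVSC MDI is the shallowest library, and 3 reads correspond to 1.17 CPM in it. Its miR-7 values rest on 401 reads, so a share of its hairpin is known to about 5 percentage points either way.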

Other observations

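Besides miR-140, 4 miRNAs had most of their reads on the star strand over the 4 libraries, and their arm balance with MDI can be set beside that of miR-140. The share of mature reads among mature and star reads of miR-140 was 8.12% in IVSC and 12.4% after MDI, and 6.88% in SVSC and 21.9% after MDI. For miR-374a, a miRNA of the X chromosome, it was 34.7%, 46.7%, 16.3% and 26.4% in the same order, so it was higher with MDI in both cultures as well. For miR-199a, a mesenchymal miRNA, it was 28.9%, 39.4%, 39.7% and 40.4%. For its relative miR-199b it was 19.9%, 18.8%, 19.8% and 23.9%, a higher share with MDI in SVSC only. miR-376a had 240 reads in all, too few to follow. On total reads miR-374a had an MDI log2 ratio of -0.40 in IVSC, against 0.16 in SVSC, beside 0.08 and -1.62 for miR-140. These are values of single libraries, and no test was run.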
